A study of Mus musculus with 12 samples.

Results

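The phagocyte NADPH oxidase genes Cybb, Cyba, Ncf1, Ncf4 and Rac2, the proton channel gene Hvcn1 and the histone-citrullinating enzyme gene Padi4 were followed in neutrophils from Balb/c mice, all female and 8 weeks old. These 7 genes were selected by symbol from the 23621 symbols of the count table, and all 7 passed the filter on low counts that left 10604 genes for testing. RNA sequencing covered 12 libraries in 3 groups of 4: low-density neutrophils (LDN) and high-density neutrophils (HDN) from the blood of mice bearing liver metastases, and Naive neutrophils from the bone marrow of mice described as naive. LDN are the neutrophils that remain with the mononuclear cells on a density gradient, and HDN are those that sink through it. Naive differed from both other groups in tissue as well as in tumour, and the count columns of LDN and HDN, unlike those of Naive, have a month and a number in their names. Tissue, tumour and whatever that tag stands for cannot be told apart in a comparison with Naive.

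The phagocyte NADPH oxidase transfers electrons from NADPH to oxygen and so makes superoxide, the source of the neutrophil oxidative burst. Its membrane part is a heterodimer of gp91phox (Cybb) and p22phox (Cyba), and at activation cytosolic subunits that include p47phox (Ncf1) and p40phox (Ncf4) join it together with the GTPase Rac2. Electron export would depolarise the membrane, and the voltage-gated proton channel Hv1 (Hvcn1) carries the compensating protons. PAD4 (Padi4) converts histone arginine to citrulline, a step in the release of neutrophil extracellular traps, and in people loss of any of the core oxidase subunits causes chronic granulomatous disease.

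The LDN libraries held 23181686 to 26456768 counts, the HDN libraries 20049857 to 30044508 and the Naive libraries 18113922 to 27741885. Levels are CPM (counts scaled to library size after the TMM correction for RNA composition), and 3 reads were worth 0.0954 to 0.153 CPM, a floor that covers counting error only. Neutrophil markers dominated every library: the 11 markers with a row summed to 193783 to 254866 CPM in LDN, 78163 to 129208 CPM in HDN and 200741 to 234048 CPM in Naive. Of these 11 markers, 7 were higher and 1 lower in LDN than in HDN, against 26% and 20.3% of all genes tested. The lower one was the receptor gene Csf3r, with means of 3962 ± 446 CPM in LDN against 8660.4 ± 2125 CPM in HDN (SD, n = 4 each), while the granule gene Ngp averaged 20609 CPM in LDN and 1766 CPM in HDN. The sum had its lowest level in HDN, as the mean of each of the 7 genes had, and its part in their differences was not tested. Each difference is a log2 fold change with its SE, fitted in edgeR and called where the Benjamini-Hochberg adjusted p of the quasi-likelihood test was under 0.05. In bulk RNA, fewer cells of a type and less RNA per cell cannot be told apart, and since no label ties a library to an animal, the spread behind each p-value may be technical.

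All 7 genes were higher in LDN than in HDN, against a background of 26% of tested genes higher in LDN, 20.3% lower and 46.3% called in either direction. Of the genes called, 56.2% were higher in LDN, a share that became 44.7% when the 20 most abundant genes were kept out of the library sizes, and all 7 genes were still called higher there. In CPM after TMM the groups did not overlap for any of the 7, against 39.2% of all genes. Without the TMM factor the groups overlapped for Cyba. The median log2 fold change of the 7 genes was 1.71, and that of all genes tested was 0.02. The differences fell in a wide range, from 8.19-fold for Cybb and 7.72-fold for Hvcn1, through 3.36-fold for Padi4 and 3.27-fold for Ncf1, to 1.57-fold for Cyba, 1.47-fold for Ncf4 and 1.44-fold for Rac2. In HDN against Naive, 5 of the 7 were lower (background 29.9%) and 0 were higher (background 30%), where 59.8% of all genes were called. In LDN against Naive only Hvcn1 was called, and it was lower (background 26.8% lower, 27.4% higher and 54.2% in either direction). These comparisons share libraries and are therefore not independent of one another.

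**Figure D1:**
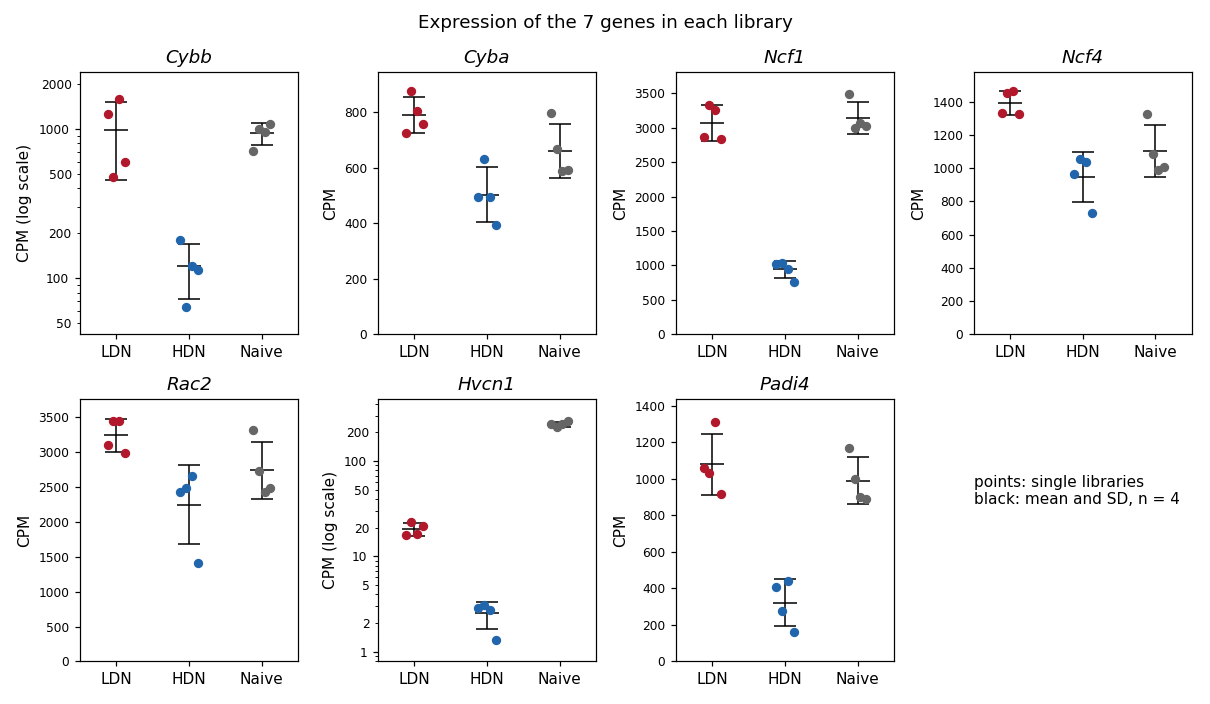
CPM of each of the 7 genes in every library, with the groups LDN, HDN and Naive from left to right, single libraries as points and the mean ± SD (n = 4) in black; Cybb and Hvcn1 are on a log axis and the other genes on a linear axis from 0. For Cybb, Ncf1 and Padi4 the HDN libraries lie below both other groups, and for Hvcn1 the 3 groups are separate, with Naive highest.

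**Figure D2:**
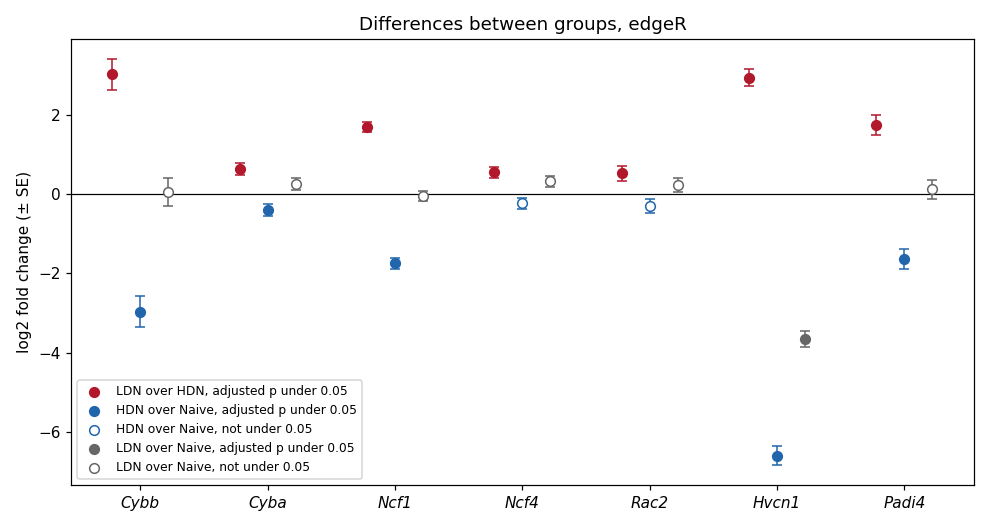
The log2 fold change (± SE, edgeR) of each gene in the 3 comparisons; filled points had an adjusted p under 0.05 and open points did not. All 7 LDN over HDN values are above 0, and Hvcn1 is the only gene with a filled point for LDN over Naive, at -3.66.

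Cybb and Cyba encode the membrane partners of the oxidase, and they differed unequally between the groups. Promoters of Cybb and Cyba are shown because these partners had the largest and one of the smallest differences between LDN and HDN. Of the 7 genes, 4 had an entry among the RefSeq promoters (GRCm38.p6, 250 bases before the start site to 50 after, C57BL/6J sequence rather than that of the Balb/c mice). Both lie on the minus strand and are written 5′ to 3′, and the capitals mark matches to motifs of the myeloid factor PU.1, alone or with an interferon regulatory factor; in human cells factors of both kinds are known to act on CYBB.
Cybb, chrX:9469275-9469574: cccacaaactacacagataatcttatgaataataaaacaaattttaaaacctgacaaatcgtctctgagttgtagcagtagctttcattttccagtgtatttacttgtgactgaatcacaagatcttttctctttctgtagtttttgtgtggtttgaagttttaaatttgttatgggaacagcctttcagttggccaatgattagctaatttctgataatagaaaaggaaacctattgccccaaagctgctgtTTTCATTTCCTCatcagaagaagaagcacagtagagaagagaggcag
Cyba, chr8:122432891-122433190: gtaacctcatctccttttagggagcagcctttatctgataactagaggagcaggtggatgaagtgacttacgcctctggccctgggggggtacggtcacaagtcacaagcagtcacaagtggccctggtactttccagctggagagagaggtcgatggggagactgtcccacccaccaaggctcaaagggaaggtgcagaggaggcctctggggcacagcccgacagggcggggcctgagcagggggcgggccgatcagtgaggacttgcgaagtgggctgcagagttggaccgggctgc

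Both strands of these windows were searched for short motifs. In Cybb the PU.1 core GAGGAA was found at bases 10 to 15 after the annotated start and the composite Ets-IRF motif (GGAA and GAAA, with a pair of bases of any kind between them) at bases 4 to 13, both on the opposite strand and overlapping each other. GAGGAA is present in 28.3% and the composite motif in 2.72% of the 32851 promoters of the same length. Neither motif was in the Cyba, Ncf1 or Padi4 window. The C/EBP motif TTGCNNAA, present in 10.8% of promoters, was in none of the 4 windows, and TATAAA, present in 13.6%, was in Padi4 only, at bases -31 to -26. A match is a string of letters and was not tested as a binding site.

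Cybb stood at 1265, 479.9, 1584 and 605 CPM in LDN 3, 4, 5 and 7, against 181, 64.2, 121 and 113 CPM in HDN 3, 4, 5 and 7. All LDN libraries were above all HDN libraries, and LDN 3 and LDN 5 were far above LDN 4 and LDN 7. The log2 fold change was 3.03 ± 0.39 (adjusted p = 3.98e-05). Within the pairs of the same number LDN exceeded HDN 6.97-fold, 7.48-fold, 13.05-fold and 5.33-fold. As the groups did not overlap, any pairing gives the same direction. Naive held 713, 995, 957 and 1084 CPM in libraries 1 to 4, a range that lies inside that of LDN. HDN was lower than Naive without overlap (-2.96 ± 0.39, adjusted p = 1.6e-05), and LDN against Naive gave 0.07 ± 0.36 (adjusted p = 0.884). The coefficient of variation of Cybb was 53.7% in LDN, 40.02% in HDN and 16.9% in Naive, in HDN close to that of Padi4 (39.98%).

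Cyba, the stabilising partner of gp91phox, differed less. It stood at 727, 876, 804 and 759 CPM in LDN 3, 4, 5 and 7, against 495, 630.5, 496 and 393 CPM in HDN 3, 4, 5 and 7 (log2 fold change 0.65 ± 0.15, adjusted p = 0.00312). The lowest LDN library was above the highest HDN library. Without the TMM factor the groups overlapped, with LDN 3 at 658 CPM and HDN 4 at 660 CPM. In GENCODE M21 the protein-coding gene Gm20388 overlaps 8155 bases of Cyba, the whole gene, on the opposite strand; Gm20388 was not analysed here. Naive held 797, 667, 588 and 593 CPM and overlapped both other groups. HDN was lower than Naive at -0.39 ± 0.15 (adjusted p = 0.0357), a call that ended without HDN 3 (adjusted p = 0.0767), HDN 5 (0.0714), HDN 7 (0.0772), Naive 1 (0.0859) or Naive 2 (0.0669). LDN against Naive gave 0.26 ± 0.15 (adjusted p = 0.16).

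The ratio of Cybb to Cyba reads within a library does not depend on how libraries are scaled. It was 1.74, 0.548, 1.97 and 0.797 in LDN 3, 4, 5 and 7, against 0.367, 0.102, 0.245 and 0.289 in HDN 3, 4, 5 and 7, without overlap. In Naive it was 0.894, 1.49, 1.63 and 1.83, a range inside that of LDN. The mean log2 ratio was 2.29 higher in LDN than in HDN (two-sided exact permutation p = 0.0286, below which 4 against 4 cannot go, adjusted to 0.0343 by Benjamini-Hochberg over 6 ratio tests). Without HDN 4 (1.90) or HDN 5 (2.32) the exact permutation p was 0.0571. Without overlap, LDN must have the higher ratio in all 4 pairs of the same number. An exact test by sign flips then gives p = 0.125 and can give no less. HDN lay 2.64 below Naive (difference -2.64, exact permutation p = 0.0286, adjusted 0.0343), and LDN minus Naive was -0.35 (exact permutation p = 0.571, adjusted 0.571). Per kilobase of exon in GENCODE M21, which may not be the authors' annotation, the level of Cyba was 762 ± 62.3 CPM per kb in LDN, 484.5 ± 93.8 in HDN and 636 ± 93.9 in Naive, and that of Cybb was 169 ± 90.9, 20.7 ± 8.28 and 161 ± 27.3 CPM per kb in the same groups (SD, n = 4 each). The transcript of the catalytic subunit was thus the scarcer of the pair by length in each group, and the ratio of Cybb to Cyba was lowest in HDN.

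**Figure D3:**
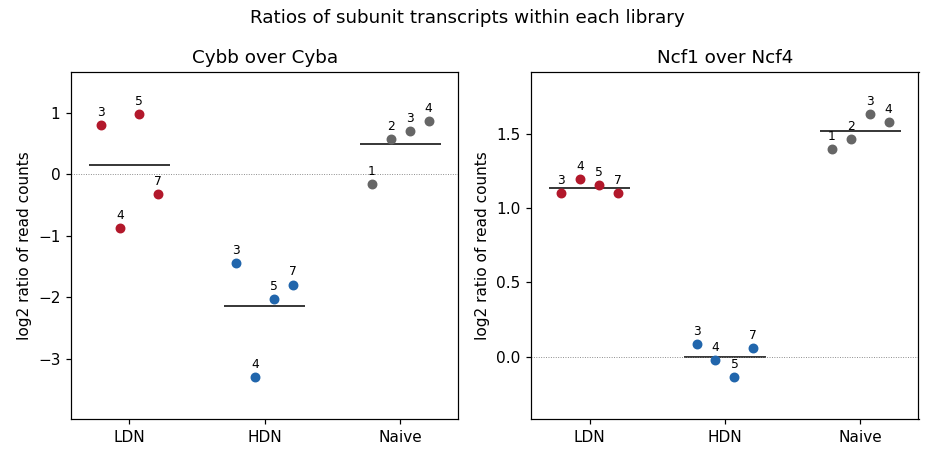
The log2 ratio of read counts of Cybb to Cyba (left) and of Ncf1 to Ncf4 (right) in each library, with replicate numbers beside the points and group means as lines. HDN lies below both other groups in both panels, and LDN overlaps Naive for Cybb over Cyba but lies below it for Ncf1 over Ncf4.

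Among the cytosolic subunits, Ncf1 differed most. The transcript of p47phox, the organiser that is phosphorylated at activation, stood at 2858, 3325, 3261 and 2837 CPM in LDN 3, 4, 5 and 7, against 1022, 1038, 944 and 757 CPM in HDN 3, 4, 5 and 7 (log2 fold change 1.71 ± 0.13, adjusted p = 9.71e-07). Naive held 3494, 2999, 3071 and 3022 CPM. HDN was below both other groups without overlap (-1.74 ± 0.13 against Naive, adjusted p = 8.78e-08), and LDN against Naive gave -0.04 ± 0.13 (adjusted p = 0.835). In GENCODE M21 Ncf1 overlaps Gtf2ird2 on the opposite strand, and the strand setting of the counting is not given in the sources used here. Gtf2ird2 averaged 1.13 ± 0.370 CPM in LDN, 0.4996 ± 0.206 CPM in HDN and 2.34 ± 0.606 CPM in Naive (SD, n = 4 each), far below the counts of Ncf1.

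Ncf4, which encodes the phosphoinositide-binding subunit p40phox, stood at 1332, 1451, 1465 and 1324 CPM in LDN 3, 4, 5 and 7, against 964, 1054, 1039.6 and 727 CPM in HDN 3, 4, 5 and 7. All LDN libraries were above all HDN libraries (0.56 ± 0.14, adjusted p = 0.00552). Naive held 1327, 1087, 989 and 1009 CPM, overlapping both groups. Neither HDN (-0.22 ± 0.14, adjusted p = 0.188) nor LDN (0.34 ± 0.14, adjusted p = 0.0564) passed the test against Naive, although LDN passed without Naive 1 (0.39, adjusted p = 0.0209).

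The ratio of Ncf1 to Ncf4 reads separated the 3 groups. It was 2.15, 2.29, 2.23 and 2.14 in LDN 3, 4, 5 and 7, against 1.06, 0.985, 0.908 and 1.04 in HDN 3, 4, 5 and 7, and 2.63, 2.76, 3.11 and 2.99 in Naive 1 to 4. On the log2 scale LDN was 1.14 above HDN, HDN minus Naive was -1.52, and LDN minus Naive was -0.38, each without overlap (two-sided exact permutation p = 0.0286 for each, adjusted 0.0343). With LDN and HDN paired by number, exact sign flips gave p = 0.125, again the least that 4 pairs can give. Within LDN the log2 ratio of Ncf1 to Ncf4 had an SD of 0.0465, while that of Cybb to Cyba had an SD of 0.890. The coefficient of variation in LDN was 8.41% for Ncf1 and 5.40% for Ncf4, against 53.7% for Cybb. The spread seen for Cybb in LDN was thus not shared by this cytosolic pair.

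Rac2, the haematopoietic Rac GTPase of the active complex, stood at 3104, 3439, 3443 and 2981 CPM in LDN 3, 4, 5 and 7, against 2429, 2492, 2651 and 1410.1 CPM in HDN 3, 4, 5 and 7. The groups did not overlap, with HDN 7 well below the other HDN libraries (log2 fold change 0.53 ± 0.18, adjusted p = 0.0293). Without HDN 7 the difference was 0.36 (adjusted p = 0.0247). The call ended without LDN 3 (adjusted p = 0.0602), LDN 4 (0.0826), LDN 5 (0.0828) or LDN 7 (0.0511). Naive held 3324, 2733, 2431 and 2479.6 CPM, and neither HDN (-0.29 ± 0.18, adjusted p = 0.189) nor LDN (0.24 ± 0.18, adjusted p = 0.282) passed against it.

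Hvcn1 had the largest differences from Naive of the 7 genes. It stood at 16.6, 22.9, 17.3 and 20.99 CPM in LDN 3, 4, 5 and 7, against 2.86, 3.12, 2.74 and 1.34 CPM in HDN 3, 4, 5 and 7, which rest on 35 to 98 reads per HDN library. Naive held 244, 228, 245 and 265 CPM in libraries 1 to 4, and the 3 groups were separate. LDN was higher than HDN (2.95 ± 0.21, adjusted p = 5.62e-07), in the pairs of the same number 5.80-fold, 7.36-fold, 6.30-fold and 15.7-fold. HDN was 97.4-fold lower than Naive (-6.61 ± 0.24, adjusted p = 1.98e-10) and LDN 12.6-fold lower (-3.66 ± 0.21, adjusted p = 1.3e-08). Hvcn1 overlaps Tctn1 on the opposite strand in GENCODE M21. Tctn1 averaged 33.1 ± 4.63 CPM in LDN, 81.3 ± 16.1 CPM in HDN and 17.3 ± 2.80 CPM in Naive (SD, n = 4 each), an order opposite to that of Hvcn1.

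Padi4 stood at 1058, 1034, 1310.4 and 916 CPM in LDN 3, 4, 5 and 7, against 407, 274, 442 and 162 CPM in HDN 3, 4, 5 and 7 (1.75 ± 0.25, adjusted p = 0.000111). Naive held 1166, 998, 901 and 891 CPM. HDN was below both other groups without overlap (-1.62 ± 0.25 against Naive, adjusted p = 8.31e-05), and LDN against Naive gave 0.13 ± 0.25 (adjusted p = 0.69). The other peptidylarginine deiminases were scarce. Padi3 was the only one past the filter, at 3.26 ± 0.916 CPM in LDN, 1.198 ± 0.360 CPM in HDN and 3.03 ± 0.741 CPM in Naive (SD, n = 4 each), higher in LDN than in HDN (1.44 ± 0.29, adjusted p = 0.00129) and lower in HDN than in Naive (-1.34 ± 0.29, adjusted p = 0.00121). Padi1, Padi2 and Padi6 had 25 reads or fewer in every library.

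Read as an order of groups, Cybb, Ncf1 and Padi4 had HDN lowest, with LDN and Naive not distinguished by the test. Cyba had the same order, but its HDN and Naive libraries overlapped. For Ncf4 and Rac2 the test called only LDN against HDN, with the mean of Naive between them; when the 20 most abundant genes were kept out of the library sizes, HDN was also lower than Naive for Ncf4 (-0.38, adjusted p = 0.00157) and Rac2 (-0.45, adjusted p = 0.00624). Hvcn1 alone had 3 separate levels, Naive over LDN over HDN. In the comparison of HDN with Naive, 4 of the 7 genes did not overlap between the groups (background 53.3%), and in LDN against Naive it was Hvcn1 alone (background 55.3%). The authors' deposited tables gave the same call for all 7 genes in all 3 comparisons, that is for 21 of 21 results.

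Rac1, the widely expressed Rac GTPase, was higher than Naive both in LDN (0.80 ± 0.12, adjusted p = 8.08e-05) and in HDN (0.51 ± 0.12, adjusted p = 0.00222), and LDN against HDN gave 0.29 (adjusted p = 0.0622). BC017643, now named Cybc1, encodes the chaperone of the membrane heterodimer, and it was lower in LDN than in HDN (-0.35 ± 0.12, adjusted p = 0.0344) although the groups overlapped. Nox1, Nox3, Nox4, Duox2 and Noxa1 had 0 reads in all 12 libraries. Of 30 tested genes of oxidase assembly and GTPase control, 10 were higher and 1 lower in LDN than in HDN (median log2 fold change 0.20), against 26% and 20.3% of all genes. They included Tiam1, an exchange factor for Rac (1.73 ± 0.17, adjusted p = 4.22e-06), and the Rac effector kinase Pak1 (1.46 ± 0.21, adjusted p = 8.67e-05). In HDN against Naive 9 were higher and 10 lower (median 0.13), near the background of 30% and 29.9%, and in LDN against Naive 9 were higher and 3 lower (median 0.26; background 27.4% and 26.8%). Nrros, which in mice limits gp91phox abundance, was higher than Naive both in LDN (0.69 ± 0.19, adjusted p = 0.00714) and in HDN (1.07 ± 0.19, adjusted p = 0.000239), and LDN against HDN gave -0.39 (adjusted p = 0.105).

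The NADPH supply list holds genes of pathways that supply NADPH, the electron donor of the oxidase. Several of its enzymes, Hk3 and Tkt among them, do not make NADPH themselves. Of its 14 tested genes, 10 were higher and 0 lower in LDN than in HDN (median log2 fold change 0.97, all genes 0.02; background 26% and 20.3%), among them Me2, a mitochondrial malic enzyme (1.52 ± 0.14, adjusted p = 2.57e-06). In HDN against Naive 0 were higher and 10 lower (median -0.68; background 30% and 29.9%), and in LDN against Naive 3 were higher and 2 lower (median -0.04; background 27.4% and 26.8%). G6pdx, the first enzyme of the pentose phosphate pathway, averaged 2944 ± 466 CPM in LDN, 952 ± 301 CPM in HDN and 983 ± 67.4 CPM in Naive (SD, n = 4 each). LDN was higher than HDN (1.63 ± 0.21, adjusted p = 5.09e-05) and than Naive (1.58 ± 0.21, adjusted p = 3.3e-05), and HDN against Naive gave -0.05 (adjusted p = 0.861).

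Among 12 other tested genes of charge and pH transport, 0 were higher and 1 lower in LDN than in HDN (median log2 fold change 0.04), against 26% and 20.3% of all genes. In HDN against Naive 4 were higher and 4 lower, near the background of 30% and 29.9%, and in LDN against Naive 5 were higher and 3 lower (background 27.4% and 26.8%). Trpm2, an oxidant-gated calcium-permeable channel, averaged 81.8 ± 12.3 CPM in LDN, 104 ± 32.1 CPM in HDN and 603 ± 44.6 CPM in Naive (SD, n = 4 each; LDN over Naive -2.88 and HDN over Naive -2.54, adjusted p = 1.37e-07 and 1.98e-07). The chloride-proton exchanger gene Clcn7 went the other way, higher than Naive in LDN (1.92 ± 0.28, adjusted p = 6.82e-05) and in HDN (2.11 ± 0.28, adjusted p = 2.22e-05).

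In the extracellular trap list, 5 of 8 tested genes were higher and 1 lower in LDN than in HDN (median log2 fold change 2.52), against 26% and 20.3% of all genes. In HDN against Naive 1 was higher and 5 lower (median -1.47), against 30% and 29.9% of all genes. The 5 genes higher in LDN than in HDN were also the 5 lower in HDN than in Naive. They were the granule proteases Elane, Prtn3 and Ctsg, the protease inhibitor Serpinb1a and myeloperoxidase (Mpo). Mpo kills with the peroxide that the burst provides. Granule proteases and Mpo are transcribed mainly in neutrophil precursors. Mpo stood at 16.9, 43.5, 5.57 and 14.8 CPM in LDN 3, 4, 5 and 7, against 0.872, 1.43, 1.18 and 0.496 CPM in HDN 3, 4, 5 and 7 (4.32 ± 0.53, adjusted p = 3.05e-05). Naive held 58.3 to 75.7 CPM, and LDN was lower than Naive (-1.76 ± 0.44, adjusted p = 0.00432). Elane, neutrophil elastase, gave 4.10 ± 0.56 in LDN over HDN (adjusted p = 6.7e-05) and -2.05 ± 0.44 in LDN over Naive (adjusted p = 0.00135). In HDN, Elane had only 3 to 13 reads per library and Ctsg 2 to 4, near the floor of 3 reads. In LDN against Naive 2 genes of the list were higher and 3 lower (median -0.05; background 27.4% and 26.8%), the higher ones being Prtn3 (1.21 ± 0.25, adjusted p = 0.00117) and Serpinb1a (0.89 ± 0.21, adjusted p = 0.00273). Among LDN libraries Mpo was highest in LDN 4 and lowest in LDN 5, the libraries in which Cybb was lowest and highest. Gsdmd, the pore protein gasdermin D, gave -0.10 in LDN over HDN (adjusted p = 0.548). It was the 1 gene of the list higher in HDN than in Naive (0.35, adjusted p = 0.0338).

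Of 10 tested transcription factors reported at the human CYBB promoter, 3 were higher and 4 lower in LDN than in HDN (median log2 fold change -0.04). The background was 26% higher and 20.3% lower, so only the share of higher ones was near it. Irf8 stood at 6.60, 5.86, 3.93 and 3.82 CPM in LDN 3, 4, 5 and 7, against 0.630, 0.286, 0.685 and 0.0763 CPM in HDN 3, 4, 5 and 7, the last below the floor of 3 reads (3.61 ± 0.45, adjusted p = 3.18e-05). Cebpe, a factor of granule gene expression, gave 2.86 ± 0.17 (adjusted p = 1.75e-07), and Cebpa gave 0.64 (adjusted p = 0.0464). Irf1, an interferon response factor, was lower in LDN (-0.98 ± 0.23, adjusted p = 0.00408). Irf2 (-0.56, adjusted p = 0.00179), Bcl6 (-0.52, adjusted p = 0.00915) and Elf1 (-0.51, adjusted p = 0.0324) were also lower in LDN than in HDN. Spi1, the gene of PU.1, averaged 1109.9 ± 62.6 CPM in LDN, 975 ± 196 CPM in HDN and 798 ± 161 CPM in Naive (SD, n = 4 each), and LDN against HDN gave 0.19 (adjusted p = 0.383). The levels of these factors were not tested as a cause of any difference in the oxidase genes.

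**Figure D4:**
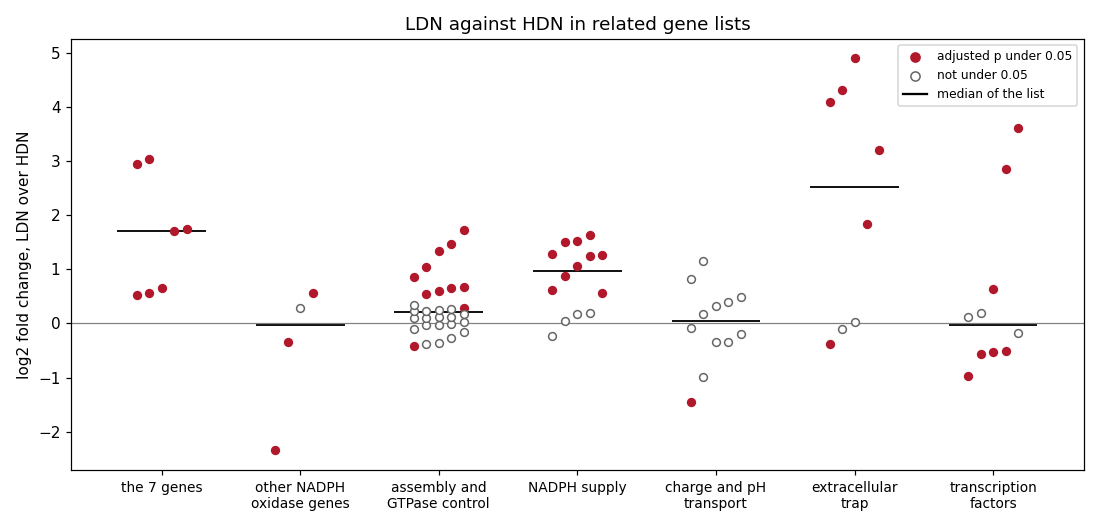
The log2 fold change of LDN over HDN for the 7 genes and for the tested members of 6 related gene lists; filled points had an adjusted p under 0.05, open points did not, and lines are medians of the lists. The median is 1.71 for the 7 genes, 2.52 for the extracellular trap list and 0.97 for NADPH supply, and lies between -0.04 and 0.20 for the other lists.

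Monocytes, macrophages and B cells also express oxidase subunits, and B cells express Hvcn1. The 14 monocyte and macrophage markers with a row summed to 250.5 to 345 CPM in LDN, 347 to 550 CPM in HDN and 618 to 826 CPM in Naive. Of the 12 tested, 8 were higher and 1 lower in LDN than in HDN, against 26% and 20.3% of all genes. The lower one was Csf1r, which held most of the sum in HDN (122 ± 17.3 CPM in LDN and 367 ± 113 CPM in HDN, SD, n = 4 each), while Ly6c2 was higher (64.0 ± 15.8 CPM in LDN and 13.8 ± 8.51 CPM in HDN). The macrophage markers C1qa, C1qb and C1qc had 12 to 14 reads each over the LDN libraries and 0 over the HDN libraries. The 7 B cell markers with a row summed to 4.55, 1.98, 7.25 and 1.303 CPM in LDN 3, 4, 5 and 7, against 1.11, 1.27, 2.44 and 0.4198 CPM in HDN 3, 4, 5 and 7, and 20.4, 45.8, 52.2 and 48.9 CPM in Naive 1 to 4. B cell markers were thus highest in Naive, as Hvcn1 and the sums of monocyte and macrophage, T cell and platelet markers were. Most of the monocyte and macrophage sum in Naive was Csf1r and Ly6c2 (319 and 360 CPM on average). Of the 12 tested markers of that list, 5 were higher and 5 lower in LDN than in Naive (background 27.4% and 26.8%). In HDN against Naive 3 were higher and 6 lower (background 30% and 29.9%). F13a1 was among those higher in LDN than in Naive (5.73 ± 0.99, adjusted p = 0.000265). LDN 3 and LDN 5 had the highest B cell sums of their group and also the highest Cybb. Hvcn1 was instead highest in LDN 4 and LDN 7 (22.9 and 20.99 CPM), where the B cell sums were lowest. Naive 1 had the lowest B cell sum of its group, with Hvcn1 at 244 CPM, inside the range of the other Naive libraries (228 to 265 CPM). Of the 5 B cell markers tested, 1 was higher in LDN than in HDN, near the background of 26%. All 5 were lower in LDN (background 26.8%) and in HDN (background 29.9%) than in Naive. The part of other cell types in the Cybb and Hvcn1 results was not tested.

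**Figure D5:**
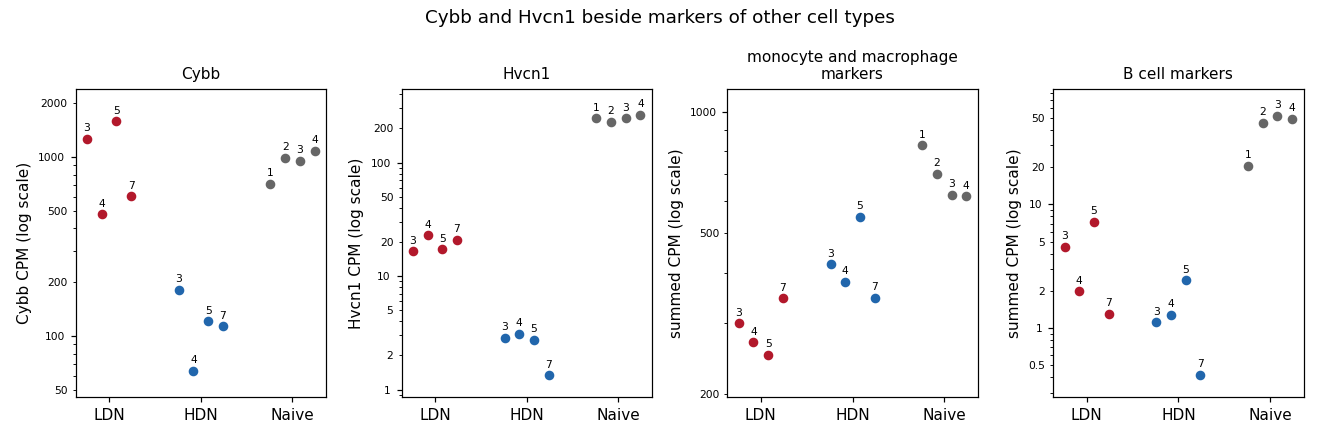
CPM of Cybb and Hvcn1 and summed CPM of 14 monocyte and macrophage and 7 B cell markers in each library, on log axes, with replicate numbers beside the points. The monocyte and macrophage sum is lower in the LDN libraries (250.5 to 345 CPM) than in the HDN libraries (347 to 550 CPM). Both sums and Hvcn1 are highest in Naive, where most of the monocyte and macrophage sum is Csf1r and Ly6c2.

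The genes whose log2 CPM was most like each member over the 12 libraries were found by Pearson's r, which here reflects mainly the 3 group levels and is given without a test. Cybb was closest to Lrrfip2 (r = 0.992), Cd55 (0.991) and Ceacam1 (0.987). Ncf1 was closest to E2f2 (0.997), Ckap4 (0.997) and Coro7 (0.996), and Padi4 to Eif4e3 (0.994), Wdr1 (0.993) and Lin28a (0.993). Hvcn1 was closest to Lhfpl2 (0.998), Pxylp1 (0.998) and Ankrd46 (0.998). Lhfpl2 averaged 7.44 ± 1.49 CPM in LDN, 0.874 ± 0.264 CPM in HDN and 67.2 ± 7.17 CPM in Naive (SD, n = 4 each), the same steep order at a lower level. Ncf4 and Rac2 shared Cotl1 among their closest genes (0.984 for each), and Cyba was closest to 4632428N05Rik (0.985), Gpr108 (0.981) and Myeov2 (0.978).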

How the data were processed

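Total RNA was extracted with TRIzol and a column, and stranded polyadenylated-RNA libraries were made, per the labels' protocols. CASAVA 1.8.2, Trimmomatic, STAR and DESeq2 1.16.1 are named in the submitters' processing notes. The genome build, annotation and strand setting were not given in the sources used here. The authors deposited raw counts per symbol, whose 12 columns all matched a sample by name (0 unmatched). The authors' deposited tables hold, per gene, a signal (mean normalized count), log2 fold changes and standard errors, a Wald score and p-values.

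The counts were tested with edgeR 4.0.16 in R 4.3.3 (filterByExpr by group, TMM, robust quasi-likelihood, group as the only term, all 12 libraries, Benjamini-Hochberg over 10604 genes). Tested on simulated data for LDN against HDN (10465 genes), the model recovered 50 of 50 genes at a log2 change of 2 and of -2, 38 of 50 at 1 and 37 of 50 at -1, with 13 false calls. Subunit ratios used raw counts and exact permutation over 70 arrangements. Alternatives were RLE scaling, library sizes without the 20 most abundant genes, no filter, DESeq2 1.42.0, limma-voom 3.58.1, the compared groups alone, the replicate block and each library left out.

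LDN and HDN share the numbers 3, 4, 5 and 7. Deviations from the group means correlated at 0.315 to 0.76 between libraries of the same number and at -0.608 to 0.412 between others, ranges that overlap. The numbers were used as pairs in the replicate block, the sign flips and the folds within pairs. The main tests did not use them.

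The 7 genes and all lists were chosen with earlier results of these data known. Beside the 7 genes, named genes were the called list members of largest change (up to 4 per list and comparison, from a mean log2 CPM of 1), Rac1, Mpo, Elane and the Padi genes, and the 3 most correlated genes per member. Genes overlapping a member, low markers, Gsdmd, Spi1, Nrros and other exceptions were named after their values were seen, and some genes under the rule are not reported here. Marker lists of eosinophils, T cells, NK cells, platelets, dendritic cells and basophils were also summed.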

Additional observations from a re-analysis of the deposited data

Results flagged for a closer look

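In the Naive group, Ncf1 stood apart in Naive 1 (3494 CPM) from Naive 2, 3 and 4 (2999, 3071 and 3022 CPM), although the highest library was only 1.17-fold above the lowest. The gap to the nearest library was 0.855 of the whole range of the group, above Dixon's 95% critical value for 4 samples. It was the only such value among 27 groups of 4 (the 7 genes and 2 ratios in 3 groups each), and chance flags about 1 in 20 groups.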

How the results depend on the processing

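All 7 genes kept their direction for LDN over HDN under every alternative run, and 6 or 7 passed when single libraries were left out; Rac2 ranged from 0.36 to 0.62 and missed the threshold with the 8 LDN and HDN libraries alone (0.48, adjusted p = 0.0589). The replicate block changed no call of the 7 genes (5709 genes and all 7 members passed, Cybb 2.90, Rac2 0.52), but exact sign flips of the ratios (Cybb over Cyba 2.29, Ncf1 over Ncf4 1.14, p = 0.125 each) cannot pass with 4 pairs. With single libraries left out, Cybb over Cyba ranged from 1.90 to 2.62 for LDN minus HDN (exact permutation p = 0.0286 to 0.0571), Cyba for HDN over Naive from -0.51 to -0.29, Ncf4 for LDN over Naive from 0.26 to 0.39, and the members called there from 1 to 2.

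Library sizes without the 20 most abundant genes moved the median of all genes to -0.12 for LDN over HDN, -0.11 for HDN over Naive and -0.28 for LDN over Naive, and the share of calls that were higher to 44.7%, 40.4% and 31.8%, from 56.2%, 50.1% and 50.6% with TMM. With it Ncf4 (-0.38) and Rac2 (-0.45) passed for HDN over Naive, giving 7 members there, and 2 members passed for LDN over Naive, Hvcn1 and Ncf1 (-0.33, or -0.05 relative to the median of all genes). Cybb, Cyba, Rac2 and Padi4, not called for LDN over Naive, turned to -0.25, -0.03, -0.05 and -0.17 there. Ncf4 passed for LDN over Naive with limma-voom (0.35, adjusted p = 0.0464) and with the 8 LDN and Naive libraries alone (0.32, adjusted p = 0.0276), giving 2 members each, and without Naive 1. Cybb, not called for LDN over Naive, ranged from -0.31 to 0.24 with libraries left out and was -0.09 with limma-voom. Depth was no limit for the 7 genes, the lowest count being 35 reads. The causes were not tested.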

Other observations

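The sums of the other marker lists were as follows. Platelet markers (6) summed to 28.4 to 33.7 CPM in LDN, 9.43 to 11.5 CPM in HDN and 113 to 124 CPM in Naive. In LDN and Naive most of the platelet sum was Itgb3 (26.5 CPM in LDN, 3.54 CPM in HDN and 113 CPM in Naive on average). Itga2b was instead highest in HDN (2.31 CPM in LDN, 6.84 CPM in HDN and 2.59 CPM in Naive on average). T cell markers (6) summed to 32.3 to 49.0 CPM in LDN, 3.59 to 19.4 CPM in HDN and 192 to 267 CPM in Naive. Nearly all of this sum was Cd3d (34.7 CPM in LDN, 8.11 CPM in HDN and 214 CPM in Naive on average), while Cd3e (2.98, adjusted p = 0.00679) and Cd4 (2.23, adjusted p = 0.0197) were higher in LDN than in Naive by edgeR, at means under 1 CPM. Eosinophil markers (7) summed to 13.7 to 23.7 CPM in LDN, 40.5 to 86.8 CPM in HDN and 17.3 to 73.3 CPM in Naive. In HDN this sum was almost only Siglecf (63.1 CPM on average, against 9.80 CPM in Naive). Of the 6 markers tested, 1 was higher and 4 lower in HDN than in Naive, against 30% and 29.9% of all genes. The lower ones were Epx, Prg2, Ear1 and Ear2. NK cell (5), dendritic cell (6) and mast cell and basophil (4) markers stayed at or below 2.71 CPM in every library.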
